A study of Mus musculus with 4 samples.

Results

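A set of 10 genes of protein folding in the endoplasmic reticulum (ER) was followed in mouse pachytene spermatocytes. The genes were chosen by name, and all 10 were found in the deposited expression table of 23420 genes. They were 7 general ER chaperones and folding enzymes (Hspa5, Hsp90b1, Canx, Calr, Pdia3, Pdia4 and Pdia6) and 3 testis-specific relatives (Clgn, Calr3 and Pdilt), and all 10 lie on autosomes. The study asked how DNA damage response signaling keeps the sex chromosomes silent in male meiosis. For RNA-seq, wild-type cells were sorted from testes of C57BL/6 mice 23 weeks of age by DNA content and cultured for 24 h with the vehicle DMSO (Ctrl, n = 2 libraries) or with 10 µM AZ20, an inhibitor of the kinase ATR (AZ20, n = 2 libraries). Each library was made from 15000 cells, and the methods state that the cells of 1 mouse were split between both conditions. Libraries of the same replicate number are taken here as 1 mouse, which the sample titles do not state. All groups share the sort, the culture and the wild-type genotype, and no uncultured cells are compared here.

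ER chaperones bind newly made secreted and membrane proteins and keep them from aggregating until they are folded. Hspa5 (BiP) and Hsp90b1 bind exposed peptide stretches, Canx and Calr bind N-glycans on unfolded glycoproteins, and the protein disulfide isomerases Pdia3, Pdia4 and Pdia6 form and rearrange disulfide bonds, Pdia3 together with Canx and Calr. Male germ cells also make the calnexin relative Clgn (calmegin), the calreticulin relative Calr3 (calsperin) and the isomerase relative Pdilt, which are known for folding sperm surface proteins such as ADAM3 that sperm need on the way to and at the egg. When unfolded proteins build up, the unfolded protein response raises the general chaperones, in part through the ER stress response element (ERSE), a promoter sequence bound by NF-Y and ATF6.

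The ERSE sequences of the general chaperones are shown because this element is what these promoters are known to share. It was not used to choose the genes, but its presence in them was known beforehand and is not an independent result. The letters CCAAT and CCACG with 9 bases between them were searched on both strands of each RefSeq promoter (250 bases before to 50 bases after the gene's start, GRCm38.p6). Capitals mark letters that match, and 5 bases are shown on each side.
Hspa5, chr2:34772020-34772048: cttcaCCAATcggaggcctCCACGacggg
Hsp90b1, chr10:86705633-86705661: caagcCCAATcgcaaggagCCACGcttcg
Hsp90b1, chr10:86705528-86705556, on the strand opposite to the gene: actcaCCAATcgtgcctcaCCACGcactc
Canx, chr11:50325795-50325823: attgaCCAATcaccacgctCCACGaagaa
Calr, chr8:84847070-84847098, on the strand opposite to the gene: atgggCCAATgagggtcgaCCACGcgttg
Pdia6, chr12:17266486-17266514: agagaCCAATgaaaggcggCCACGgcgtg
Pdia3, chr2:121413868-121413896, 1 mismatch: cgcagCCAATcggcggctgCCACactgcg
Pdia4, chr6:47813597-47813625, 1 mismatch, on the strand opposite to the gene: gaccaCCAATcacgggctgCCACtcggtt

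Hspa5, Hsp90b1, Canx, Calr and Pdia6 held the full element, which makes 5 of the 9 members with a promoter entry. Of all 32851 promoters searched, 39 (0.119%) held it. Pdia3 and Pdia4 each differed from it at the last base of the element, as G19A in Pdia3 and G19T in Pdia4, with positions counted from 1 at the first C of CCAAT. With up to 1 mismatch allowed, all 7 general members held the element, and 494 of all promoters (1.50%) did. Neither of the Calr3 promoters nor the Pdilt promoter held it in this window, and Clgn is named only. The related element ERSE-II (ATTGG and CCACG with 1 base between them) and the core of the unfolded protein response element (TGACGTGG) were found in none of the 9. A match of letters is a description of the sequence and does not show that a factor binds there.

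In Ctrl cells, the general chaperones other than Pdia4 were among the well expressed genes, and of the testis-specific relatives Clgn alone reached a comparable level. Levels are given as TPM (each library summing to 1000000), a scale per transcript length that can be compared between genes. Canx, the membrane-bound lectin chaperone (chr11:50293961-50325673), was highest, at 629.5 and 582.3 TPM in the Ctrl libraries. Hsp90b1 (325.4 and 284.0 TPM), Hspa5 (287.1 and 290.8), Pdia6 (254.1 and 318.3) and Pdia3 (228.9 and 257.2) followed, and each neighbour in that order overlapped the next. Calr, the soluble lectin partner of Canx, stood below them at 166.3 and 144.3 TPM, and Clgn just below Calr at 129.6 and 114.9 TPM without overlap. Pdia4 was far lower, at 7.39 and 11.9 TPM, and Calr3 and Pdilt were lowest and overlapped each other. The spread from Canx to Clgn was thus within 1 order of magnitude, and the next step down, from Clgn to Pdia4, was 12.7-fold between Ctrl means.

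**Figure D1:**
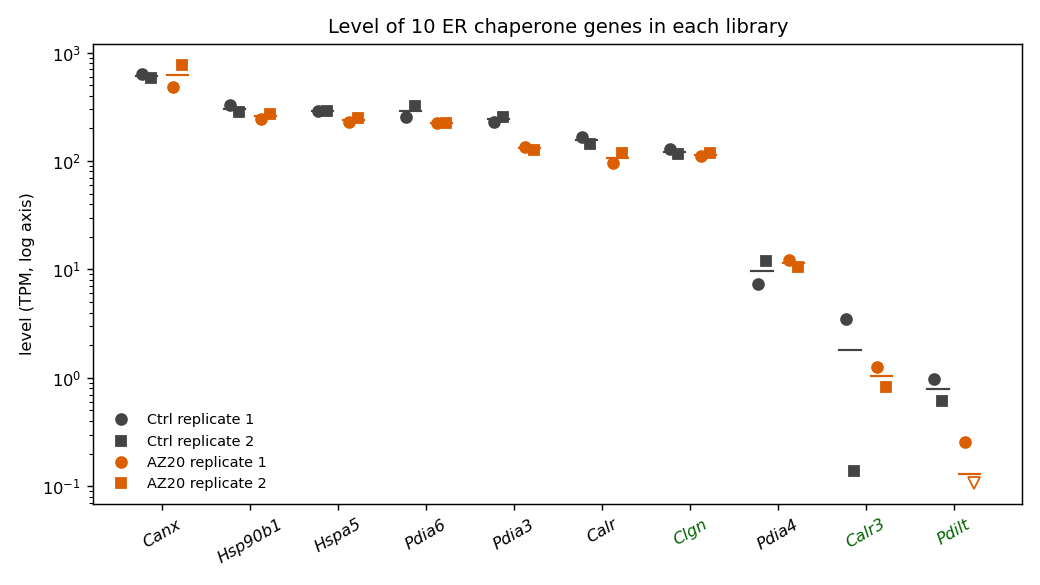
Level of each gene in TPM on a log axis, with the 2 Ctrl libraries in gray and the 2 AZ20 libraries in orange, circles for replicate 1 and squares for replicate 2, and a short line at each group mean. Names of the testis-specific genes are green, and the open triangle is the AZ20 library in which Pdilt was listed at 0. It is drawn at the value of 3 reads there (0.107 TPM), which is not a measured level. Both AZ20 libraries of Pdia3, at 133.6 and 127.4 TPM, lie below both Ctrl libraries, while Clgn stays between 110.2 and 129.6 TPM in all 4 libraries.

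No member passed the full test for a change with AZ20, in either direction. Log2(TPM + 1) was fitted with limma over the 10316 genes with a mean above 1 TPM in Ctrl or AZ20, and p-values were adjusted by the Benjamini-Hochberg method. Genes were called where the adjusted p was under 0.05 and the change 2-fold or more. Of the 10 members, 9 were tested and 0 were called higher or lower, while 2.28% of all tested genes were called higher and 0.0485% lower. Before adjustment, 2 members (Pdia3 and Calr) were lower at p under 0.05 and 0 were higher, beside 1.13% lower and 8.03% higher among all genes. Voom, fitted to reads recovered from the TPM, also called 0 members. The members and the lists below were chosen by name with earlier results of these data known, so their counts are read as descriptions.

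Below the 2-fold mark, the general chaperones stood to the low side in AZ20. For 5 of the 7 (Hspa5, Hsp90b1, Calr, Pdia3 and Pdia6), both AZ20 libraries were below both Ctrl libraries, and Pdilt made it 6 of the 10 members. Pdilt was not tested, and among the tested members the count was 5 of 9. Among all tested genes, 11.7% had both AZ20 libraries below both Ctrl libraries and 26.4% had both above. No member had both AZ20 libraries above both Ctrl libraries. The median log2 change of the 7 general members was -0.28, beside 0.072 over all genes tested. That background was not matched to the members for level, and its median was 0.051 over genes above 5 TPM. With quantile normalization the median of all genes was -0.071, and Hspa5 was at -0.27. With 2 libraries a group, an exact permutation test cannot give a two-sided p under 0.333, and in bulk RNA fewer cells of a type and less RNA per cell cannot be told apart.

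Among the general members, the largest difference was that of Pdia3, the isomerase that works on glycoproteins held by Canx and Calr (chr2:121413775-121438687). It was at 228.9 and 257.2 TPM in Ctrl and at 133.6 and 127.4 TPM in AZ20, from 6102 and 7837 reads and from 5133 and 4417 reads. The groups were separated by more than their spread, with means of 243.0 ± 20.0 and 130.5 ± 4.40 TPM (SD, n = 2 each). The log2 change was -0.89 (SE 0.16, 95% interval -1.27 to -0.51), with a limma adjusted p of 0.0420. It was -0.77 in the first mouse and -1.01 in the second, and the adjusted p with the replicate number as a block was 0.00484. It therefore passed the adjusted p and not the fold minimum, and 0.0582% of all tested genes were lower at that adjusted p with no fold minimum. Its rank was 57 from the lowest change of the 10316 genes. In the fits that left out a library, the log2 change of Pdia3 was between -0.97 and -0.81. Its adjusted p was not under 0.05 there, but each of these fits leaves 1 library in a group. They therefore cannot decide whether the adjusted p holds.

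Calr, which takes up glycoproteins in the ER lumen and stores calcium (chr8:84841850-84846934), had 166.3 and 144.3 TPM in Ctrl and 96.3 and 119.0 TPM in AZ20. Its groups did not overlap, but the gap was carried more by the first mouse, with log2 changes of -0.78 and -0.28 in the pairs. The fitted log2 change was -0.53 (SE 0.19), with an adjusted p of 0.422. Pdia6, another disulfide isomerase (chr12:17266545-17284770), was at 254.1 and 318.3 TPM in Ctrl and at 222.1 and 222.9 TPM in AZ20. Here the AZ20 libraries were nearly equal and the Ctrl libraries were spread, and the log2 change was -0.35 (SE 0.17, adjusted p = 0.643), or -0.51 without the first Ctrl library and -0.19 without the second.

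Hspa5 and Hsp90b1 are the genes usually read as markers of the unfolded protein response, and neither was higher with AZ20. Hspa5 (chr2:34771970-34777547) was at 287.1 and 290.8 TPM in Ctrl and at 229.2 and 246.6 TPM in AZ20, a log2 change of -0.28 (SE 0.15, 95% interval -0.64 to 0.075, adjusted p = 0.685). Hsp90b1 (chr10:86690209-86705509) went from 325.4 and 284.0 TPM to 244.9 and 269.7 TPM, a log2 change of -0.24 (SE 0.16, 95% interval -0.62 to 0.14, adjusted p = 0.756), or -0.14 without the first Ctrl library and -0.34 without the second. For both, the AZ20 libraries were below the Ctrl libraries by amounts that did not pass the test.

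Canx and Pdia4 were the general members whose groups overlapped. Canx had 629.5 and 582.3 TPM in Ctrl and 484.0 and 769.6 TPM in AZ20, so the AZ20 libraries were the lowest and the highest of the 4. Its log2 change was 0.01 (SE 0.23, adjusted p = 0.997) and turned negative under scaling to a common median (-0.21) and under quantile normalization (-0.0052). Pdia4, a larger isomerase (chr6:47796141-47813430), had 7.39 and 11.9 TPM in Ctrl and 12.3 and 10.5 TPM in AZ20. Its Ctrl libraries enclosed 1 of the AZ20 libraries, and the log2 change was 0.25 (SE 0.28, adjusted p = 0.874).

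**Figure D2:**
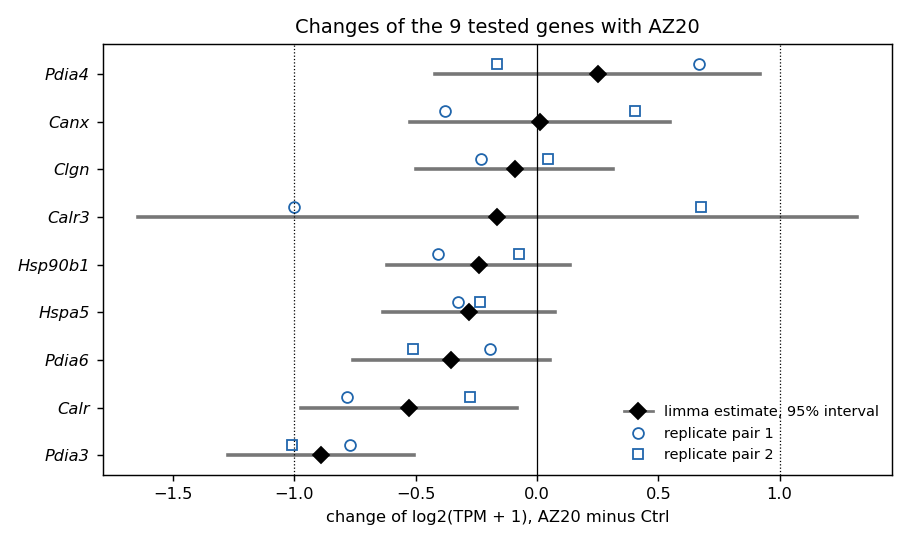
Change of log2(TPM + 1), AZ20 minus Ctrl, for the 9 tested genes. Diamonds are limma estimates with their 95% intervals, and dotted lines mark a 2-fold change. Blue open circles and squares are the changes within the first and second replicate number, each taken as 1 mouse. The intervals of Pdia3 and Calr lie wholly below 0, and that of Calr3 is the widest.

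The testis-specific relatives had to be read at very different depths. Clgn, the germ-cell counterpart of Canx (chr8:83389867-83428552), was at 129.6 and 114.9 TPM in Ctrl and at 110.2 and 118.7 TPM in AZ20. The groups overlapped, with means of 122.2 ± 10.4 and 114.5 ± 5.98 TPM (SD, n = 2 each). The log2 change was -0.09 (SE 0.17, adjusted p = 0.933), and its 95% interval, -0.50 to 0.31, is within a 2-fold change in either direction. Clgn was negative in the first mouse (-0.23) and positive in the second (0.05).

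Calr3, the germ-cell counterpart of Calr (chr8:72424176-72443870), was at 3.51 and 0.140 TPM in Ctrl and at 1.26 and 0.818 TPM in AZ20, from 66, 3, 34 and 20 reads in that order. The Ctrl libraries alone held both the highest and the lowest value, and their exact Poisson 95% intervals, 2.71 to 4.47 and 0.0288 to 0.408 TPM, were apart, so the spread is larger than counting error, which is all these intervals cover. The log2 change of -0.16 (SE 0.62, 95% interval -1.64 to 1.32, adjusted p = 0.972) excludes neither a 2-fold rise nor a 2-fold fall, and it turned positive with a pseudocount of 0.1 (0.26). Within each condition, the library with more Calr3 also had the higher sum of 10 round spermatid markers, at 675.6 against 436.7 TPM in Ctrl and 1115 against 458.2 TPM in AZ20. Across conditions the order differed, since the first AZ20 library had the highest marker sum and less Calr3 than the first Ctrl library. The sort by DNA content was set for pachytene cells, which hold more DNA than haploid spermatids, and the part of spermatid RNA in the Calr3 values was not tested.

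Pdilt, the germ-cell disulfide isomerase relative that works with Clgn (chr7:119486587-119523489), was at 0.973 and 0.608 TPM in Ctrl and at 0.257 and 0 TPM in AZ20. These values rest on 21, 15, 8 and 0 reads. The AZ20 libraries were below the Ctrl libraries, but the gene was under the expression filter and was not tested. The library at 0 allows up to 0.107 TPM by the value of 3 reads there, and up to 0.131 TPM by the exact Poisson 95% limit. Without the filter, the log2 change was -0.67 (SE 0.19), with an adjusted p of 0.490 over 16857 genes.

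Ratios within a library compare each relative with its general counterpart free of the scale between libraries. Clgn was 20.6% and 19.7% of Canx in Ctrl and 22.8% and 15.4% in AZ20. Calr3 was 2.11% and 0.0968% of Calr in Ctrl and 1.30% and 0.688% in AZ20. Both ratios overlapped between the groups (exact two-sided permutation p = 1 each). Pdilt was 0.198% and 0.104% of the summed Pdia3, Pdia4 and Pdia6 in Ctrl and 0.0699% and 0% in AZ20, without overlap (exact permutation p = 0.333, the smallest that 2 against 2 can give). Adjusted over these 3 ratios, each p was 1.

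The 3 testis-specific genes together made up 6.60% and 5.77% of the summed TPM of all 10 members in Ctrl and 7.28% and 6.34% in AZ20, nearly all of it Clgn. The sum of the 7 general members was 1899 and 1889 TPM in Ctrl and 1422 and 1766 TPM in AZ20, and that of the testis-specific members was 134.1 and 115.6 TPM in Ctrl and 111.7 and 119.5 TPM in AZ20. The general sum was thus below both Ctrl values in both AZ20 libraries, although Canx and Pdia4 each had an AZ20 library above both Ctrl libraries, and the testis-specific sum, mostly Clgn, overlapped between the groups. Whether the general and testis-specific genes differ in their response was not tested.

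Some ratios among the general members, chosen after their values were seen and so given with no test, were apart in the 2 conditions. Pdia3 was 90.1% and 80.8% of Pdia6 in Ctrl and 60.2% and 57.2% in AZ20. It was 79.7% and 88.4% of Hspa5 in Ctrl and 58.3% and 51.7% in AZ20. Calr was 26.4% and 24.8% of Canx in Ctrl and 19.9% and 15.5% in AZ20. In the order of AZ20 levels, Pdia3 no longer overlapped Pdia6, and Clgn and Calr overlapped, at 110.2 and 118.7 TPM against 96.3 and 119.0 TPM.

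**Figure D3:**
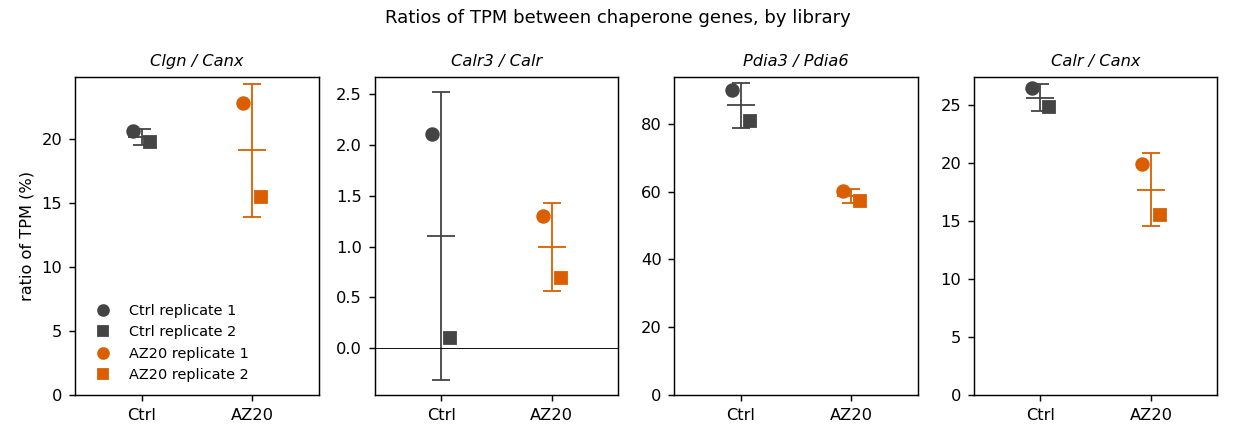
Ratios of TPM between chaperone genes in each library, in percent, with the group mean and SD (n = 2 libraries) as bars. Clgn to Canx and Calr3 to Calr overlap between Ctrl and AZ20. Pdia3 to Pdia6 (90.1% and 80.8% against 60.2% and 57.2%) and Calr to Canx (26.4% and 24.8% against 19.9% and 15.5%) do not. These ratios between general members were picked with the library values already known and carry no test. The ratio of Pdilt to the summed Pdia3, Pdia4 and Pdia6, given in the text, does not overlap either. It is 0.198% and 0.104% in Ctrl against 0.0699% and 0% in AZ20, from at most 21 Pdilt reads.

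The other genes of the folding pathway gave a single call. Of 79 genes in 6 lists, 67 were tested, 1 was called higher and 0 lower, and their median log2 change was 0.14, beside 0.072 over all genes tested. Before adjustment, 5 were higher at p under 0.05 (Prdx4, Mbtps2, Xbp1, Hspa13 and Mcfd2) and 4 lower (Sdf2l1, Txndc12, Tex101 and Ly6k), beside 8.03% higher and 1.13% lower among all genes tested. The gene called higher was the X-linked Prdx4, a peroxiredoxin that uses hydrogen peroxide to drive disulfide formation in the ER. The study reports that most expressed X-linked genes rose with AZ20, and no share for X-linked genes was computed here. Prdx4 was at 10.4 and 2.13 TPM in Ctrl and at 221.7 and 288.1 TPM in AZ20, a log2 change of 5.41 (SE 0.54, adjusted p = 0.00187). It was far above Ctrl in both mice, but its adjusted p was 0.378 without the first AZ20 library and 0.405 without the second, fits in which no gene of the table was called.

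Among 10 tested partners of the HSP70 cycle, which load and release substrates of Hspa5, 0 were called and the median change was 0.10. Their lowest change was that of Sdf2l1 (-0.61, adjusted p = 0.432), at 359.1 and 484.5 TPM in Ctrl and 318.4 and 232.9 TPM in AZ20, and their highest that of Dnajc1 (0.48, adjusted p = 0.713). Both AZ20 libraries of Sdf2l1 were below both Ctrl libraries, as for 11.7% of all tested genes. Those of Dnajc1 were above both Ctrl libraries, as for 26.4%, and 4 of the 10 partners had a change below 0. Of 12 other tested genes of the isomerase family and thiol oxidation, 1 (Prdx4) was called, the median change was 0.23, and the lowest was Txndc12 (-0.40, adjusted p = 0.490). In the N-glycan cycle that feeds Canx and Calr, 0 of 10 were called, the median was 0.26, and the changes ran from -0.17 in the cargo receptor Lman2 to 0.53 in the glucosidase subunit Ganab.

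Of 14 tested genes of ER-associated degradation, which removes proteins that fail to fold, 0 were called, with a median of 0.09 and a range from -0.31 in Edem3 to 0.61 in Syvn1. The unfolded protein response itself gave 0 calls among 10 tested genes, with a median of 0.38, beside 0.072 over all genes tested. Before adjustment, 3 of the 10 (Mbtps2, Xbp1 and Hspa13) were higher at p under 0.05, beside 8.03% of all genes. Mbtps2 is X-linked, so a share over all genes is not matched to it. Xbp1, the factor activated by Ern1, was at 28.9 and 34.1 TPM in Ctrl and 48.0 and 43.2 TPM in AZ20 (log2 change 0.52, SE 0.20, adjusted p = 0.490). Hspa13, an HSP70 relative, was at 13.8 and 11.4 TPM in Ctrl and 18.0 and 24.3 TPM in AZ20 (log2 change 0.70, SE 0.25, adjusted p = 0.420). Atf4, another transcription factor of the list, was at 28.0 and 31.7 TPM in Ctrl and 38.8 and 40.0 TPM in AZ20 (log2 change 0.39, adjusted p = 0.655). Xbp1, Hspa13 and Atf4 were named after their values were seen, and none passed the adjusted test. Both of their AZ20 libraries were above both Ctrl libraries, as for 26.4% of all tested genes. Of the 10 tested genes of the list, 2 had a change below 0. The lowest of the list was Creld2 (-0.42, adjusted p = 0.556), at 138.8 and 168.5 TPM in Ctrl and 120.4 and 107.9 TPM in AZ20. The highest was Mbtps2, the X-linked protease that releases ATF6, at 0.103 and 0.0723 TPM in Ctrl and 3.15 and 1.16 TPM in AZ20 (log2 change 1.46, SE 0.41, adjusted p = 0.246). Mbtps2 was called in the fit with the replicate block (adjusted p = 0.0171). The stress sensors Ern1 and Eif2ak3 were near 0 in every library, with at most 12 reads, and were not tested.

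Among sperm membrane proteins that Clgn, Calr3 and Pdilt are known to fold, and their helpers, 11 of 16 were tested, 0 were called, and the median change was -0.09. Adam3, a client of all 3 relatives, was at 189.7 and 129.9 TPM in Ctrl and 157.7 and 138.3 TPM in AZ20. The lowest change was that of Tex101, a surface glycoprotein of germ cells, at 524.0 and 958.5 TPM in Ctrl and 449.4 and 374.8 TPM in AZ20 (log2 change -0.79, SE 0.28, adjusted p = 0.425, and 0.0152 with the replicate block, still under the fold minimum). Its size rested on the Ctrl libraries, at -1.22 without the first and -0.35 without the second, and voom with the block gave an adjusted p of 0.0955. The highest was Ace at 0.68 (adjusted p = 0.722), from 0.971 and 0.204 TPM to 1.97 and 1.05 TPM.

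**Figure D4:**
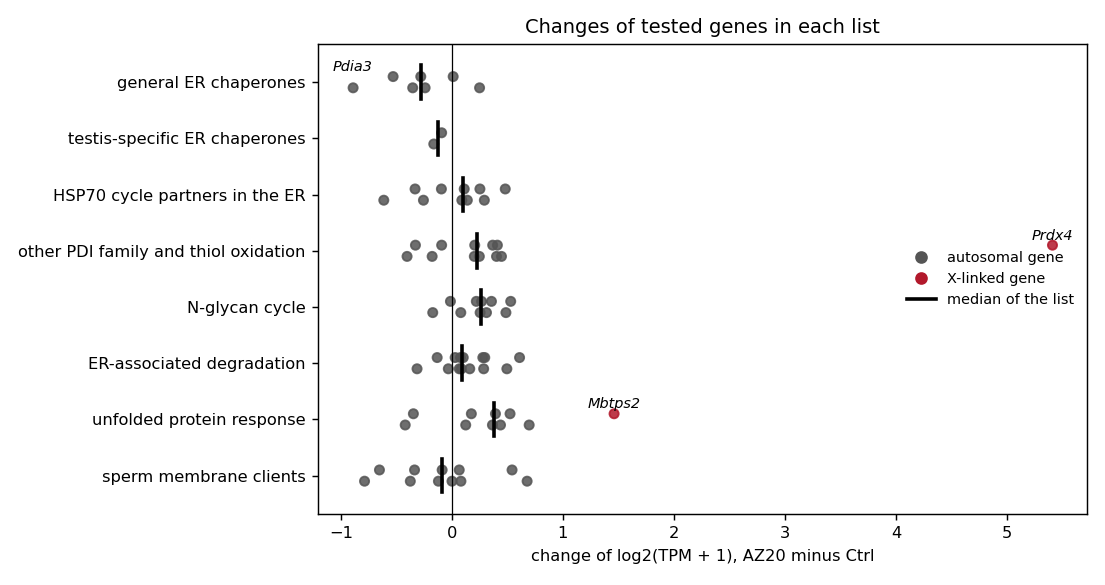
Change of log2(TPM + 1), AZ20 minus Ctrl, of each tested gene by list, with a black bar at the median of the list and X-linked genes in red. The general ER chaperones are centred at -0.28, and Prdx4 at 5.41 and Mbtps2 at 1.46 are the points farthest to the right.

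The labelled cell type was checked against marker genes. All 10 pachytene spermatocyte markers were above 1 TPM and summed to 11690 to 11723 TPM in Ctrl and 11937 to 12007 TPM in AZ20. Sertoli cell markers summed to at most 1.56 TPM, with Sox9, Wt1 and Rhox5 at 0, and 8 of 9 Leydig cell markers were at 0. Round spermatid markers were present, summing to 436.7 to 675.6 TPM in Ctrl and 458.2 to 1115 TPM in AZ20. Of these, Acr alone was at 295.3 and 279.3 TPM in Ctrl and 323.6 and 198.7 TPM in AZ20. Spermatogonium markers summed to 44.6 to 55.8 and 55.1 to 76.4 TPM, with only 4 of 10 above 1 TPM in any library. Id4 alone was at 35.1 and 34.15 TPM in Ctrl and 41.14 and 60.46 TPM in AZ20, and Dmrt1, Sohlh1 and Stra8 were at 0. The sums for peritubular myoid cells and macrophages were at most 4.81 and 2.39 TPM. The part of other cell types in the members' values was not tested. Depth, estimated from the TPM, was about 14757400 and 16701435 reads for the Ctrl libraries, and it was higher for the AZ20 libraries, at about 21289398 and 19526007 reads.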

How the data were processed

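RNA-seq of the 4 libraries was paired-end with 150-base reads. Trimming with Trimmomatic (0.39) came first. The authors then aligned reads uniquely to GRCm38/mm10 with STAR (2.5.4b), counted them on the UCSC refGene annotation with featureCounts (2.0.1), and deposited TPM computed from the counts, 1 column a library. These versions are in the submitters' processing notes. The labels give a culture temperature of 34 C and the methods 32 C. Because the table holds no counts, log2(TPM + 1) was fitted with limma (3.58.1 in R 4.3.3, intensity trend, two-sided) in place of the count test of the study. Genes with a mean above 1 TPM in either condition were tested, 92 blank rows were left out, and p-values were adjusted over all genes tested. The fit was also run on simulated libraries drawn independently, with no pairing by mouse. That run cannot show how the fit does on paired libraries. Other values came from scipy 1.17.1, numpy 2.4.6 and pandas 2.3.3 in Python 3.11.15.

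Reads were recovered from the TPM as whole numbers, since all libraries use 1 length for each gene. Of 16857 genes above 0, 16856 (99.99%) were given whole reads. The search asked for values within about 0.001 of a read. Genes that it did not settle were searched near their annotated length with a wider tolerance. A gene above 0 in a single library comes out whole by construction, so this share does not measure how right the reads are. A factor shared by the reads of a gene in all libraries is invisible in TPM, and it was set for 2224 genes from GENCODE M21 lengths. The window for that step (within 5% of a whole multiple) was set after the data were seen and after comparing recovered reads with the study's own supplementary counts, so depth is approximate. It touches depth, printed reads and the voom fits, not the limma values on TPM. The recovered length of Clgn could not be matched to its annotated one, so its reads are uncertain by a whole factor.

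The methods state that cells of a mouse were split between conditions, so the replicate numbers were taken to pair the libraries. The sample titles do not state that equal numbers share a mouse. Deviations from the group means correlated at 0.229 over 10316 genes between libraries of the same number. The block was left out of the fit reported first, because the study states none, and was an alternative, beside other pseudocounts (0.1 and 0.01), filters (none, above 5 TPM), quantile normalization, a common median, no trend, voom on recovered reads, other thresholds and leaving out each library. Named genes were all members and, from each other list, each gene called and the tested genes with the lowest and the highest change. Adam3, Ly6k, Mcfd2, Xbp1, Hspa13, Atf4, Ern1 and Eif2ak3 were named after their values were seen. Members, lists and alternatives were chosen with earlier results of these data known. Positions are GENCODE M21 (GRCm38) for genes and RefSeq (GRCm38.p6) for promoters. Promoter entries were matched by symbol for 9 of the 10 members.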

Additional observations from a re-analysis of the deposited data

How the results depend on the processing

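The 5 general members with separated groups (Hspa5, Hsp90b1, Calr, Pdia3 and Pdia6) and Clgn were lower in all 14 alternatives tried, and 0 members were called higher in any. For the 5, leaving out a library could not turn the sign, because their groups do not overlap. The other filters, the replicate block and the fit with no trend leave the log2 change as it was. Those alternatives therefore say nothing more about its direction. One member, Pdia3, was called lower under a common median (1 of 9, log2 change -1.11, adjusted p = 0.0217) and with no fold minimum (1). Scaling shifted the median change of all genes by -0.14 (quantile normalization) and -0.20 (common median). Pdia3 lost an adjusted p under 0.05 without the filter (0.0787), with a pseudocount of 0.01 (0.0619), with no trend (0.168), and in each fit without a library. Canx reversed under quantile normalization (-0.0052), a common median (-0.21), voom (-0.0108), voom with the replicate block (-0.0029), without Ctrl replicate 2 (-0.0446) and without AZ20 replicate 2 (-0.32), over a range from -0.32 to 0.35 when a library was left out. Pdia4 reversed without Ctrl replicate 1 (-0.0618; range -0.0618 to 0.56). Calr3 reversed with pseudocounts of 0.1 (0.26) and 0.01 (0.50), with voom (0.52) and without Ctrl replicate 1 (0.83; range -1.16 to 0.83). The causes were not tested. Pathway genes called higher were 2 (Prdx4 and Mbtps2) with the replicate block and with voom and the block, and 0 to 1 when a library was left out. With either AZ20 library left out no gene of the table was called, against 235 higher and 5 lower with all libraries, whereas 184 were called higher without Ctrl replicate 1 and 158 without Ctrl replicate 2, and 1 lower in each. The cause was not tested. With the replicate block, 424 genes were called higher and 23 lower, and no member changed its call. Calls lower were 1 by voom and 4 with a pseudocount of 0.1 or 0.01, 1 without the filter, and 3 by voom with the block. With 2 libraries a group, the p-values rest on the spread of 4 libraries, and the interval of Calr3 includes a 2-fold change in either direction. Whether counting used strand is not given in the sources used here, so reads of overlapping antisense genes may be included.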
